A study of Mus musculus with 5 samples.

Results

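The leukocytes of Ptgs-/- tumours were compared with those of Ptgs+/+ tumours, 1 class of cells at a time, to separate the genes that differed the same way in every class from those that differed in 1 class. The tumours were 5555 melanomas, a transplantable mouse line grown under the skin of C57BL/6 mice and taken 4 days after injection. The Ptgs genotype is that of the injected tumour cells: 1 group of mice received Ptgs-/- cells and the other Ptgs+/+ cells, both with no other treatment, and the mice's own Ptgs genes were not altered as far as the labels say. Another library, used side by side only, came from Ptgs-/- tumours in mice depleted of NK cells with anti-NK1.1 (clone PK136) and anti-Asialo GM-1 antibodies. Live CD45+ cells were sorted from each and sequenced by droplet 3' RNA-seq. How the Ptgs-/- line was derived, whether it is 1 clone, and how many mice were pooled are not given in the sources used here.

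Cells were chosen by the library name and the authors' class of each cell. Of the 14 annotated classes, 13 held at least 30 cells in both libraries, which gave 4633 Ptgs-/- cells and 3239 Ptgs+/+ cells, 7872 of the 7939 annotated cells of the pair and of the 11818 cells of all 3 libraries. B cells were left out because only 44 Ptgs-/- cells and 23 Ptgs+/+ cells carried that name. The 13 classes are neutrophils, NK cells, T cells, 2 monocyte clusters, a monocyte-macrophage cluster (Mono Mac), 4 tumour-associated macrophage clusters (TAM 1 to TAM 4), and the conventional dendritic cells cDC1, cDC2 and cDC3, where cDC3 are the CCR7+ dendritic cells. Each genotype was 1 library, so no p-value is given and no difference below has a replicate check: a difference between the libraries and an effect of the genotype cannot be told apart. Every class also comes from the same pair of libraries, so agreement between classes is not agreement between replicates.

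Prostaglandin-endoperoxide synthases, the cyclooxygenases encoded by Ptgs1 and Ptgs2, turn arachidonic acid into the precursor of the prostaglandins. Prostaglandin E2 made by tumour cells acts on leukocytes mainly through the receptors EP2 and EP4, encoded by Ptger2 and Ptger4, which raise cyclic AMP. Cyclic AMP signalling in myeloid and NK cells is known to raise Crem, Pde4b and Nr4a genes and to shift cytokine production.

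Depth was higher in the Ptgs-/- library, with a median of 4562.5 UMIs (unique RNA molecules) a cell against 3633.8 in the Ptgs+/+ library, and was higher in all 13 classes, from 1156 UMIs against 842 in neutrophils to 10188 against 9463 in the Mono Mac cluster. Levels are therefore given as mean CPM (the UMIs of each cell scaled to the same total) over the cells of a class. The make-up of the libraries also differed: neutrophils were 2.37% of Ptgs-/- cells and 6.28% of Ptgs+/+ cells, TAM 2 cells 5.13% and 20.8%, and NK cells 10.9% and 4.2%. The labels' protocols describe a share of spike-in cells, and no class percentage given here was adjusted for it. The class names fitted their markers for lymphocytes and most dendritic cells: all 10 NK cell markers were highest in the NK class in both libraries, as were all 10 markers of CCR7+ dendritic cells in cDC3. For cDC2 only 4 of 8 markers in the Ptgs-/- library and 2 of 8 in the Ptgs+/+ library were highest in the class of that name. Genes marking fibroblasts, keratinocytes and erythroid cells passed the level minimum in no class. Of 4 melanocytic markers in the data, 1 passed the minimum in each of Mono Mac, TAM 1 and TAM 3. Pmel, a gene of pigment cells, was at most 1.04 CPM in any Ptgs-/- class and 0.882 CPM in any Ptgs+/+ class. Of 4 endothelial markers in the data, 1 passed the minimum in each of NK cells, T cells and TAM 3.

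The fold is the log2 of (mean CPM + 5) in Ptgs-/- cells over the same in Ptgs+/+ cells, so a positive value means higher in Ptgs-/- tumours. A gene counted as measured in a class where the mean of both libraries reached 50 CPM, and was called higher or lower past a 1.5-fold difference (0.58 on the log2 scale). Only in neutrophils did the median fold of all measured genes exceed 0.1 (0.17), and folds there are relative to it. The share of measured genes called was 9.22% higher and 9.81% lower in Mono Mac, 7.2% and 8.59% in Monocytes 1, and 7.12% and 5.36% in Monocytes 2. It was 9.02% higher and 9.18% lower in TAM 1, 11.9% and 13.1% in TAM 2, 14% and 11.4% in TAM 3, and 15.9% and 14.4% in TAM 4. Dendritic cells had 16.3% higher and 16.8% lower in cDC1, 8.29% and 9.08% in cDC2, and 15.8% and 19.7% in cDC3. NK cells had the lowest share of higher calls (7.09%, with 7.74% lower) and neutrophils the highest shares in both directions (21% and 20.7%), with T cells at 14.5% and 16.3%. Of the 1302 genes measured in all 13 classes, 245 (18.8%) passed the 1.5-fold limit in no class.

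Agreement across all classes was rare. Among the 1302 genes, 5 (0.384%) were higher past 1.5-fold in all 13 classes and 1 (0.0768%) was lower in all 13. Counting all or all but 1 class, 9 genes (0.691%) were higher and 3 (0.23%) lower. In direction alone, 72 genes (5.53%) had a fold above 0 in every class and 63 (4.84%) a fold below 0 in every class. The heat map of shared genes shows these genes with those that reached the level minimum in only some classes.

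**Figure D1:**
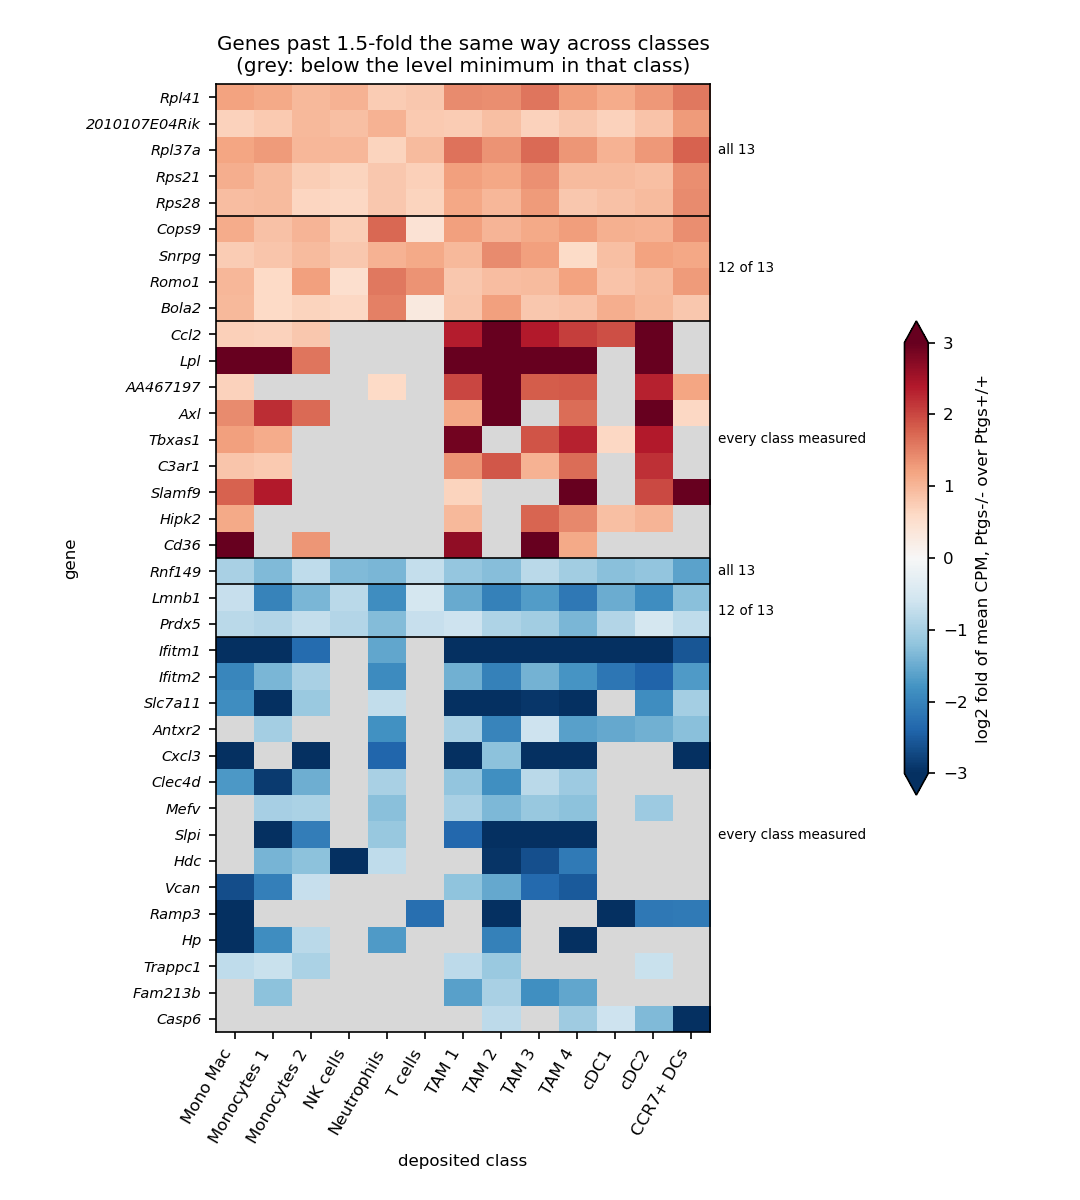
Log2 fold of mean CPM, Ptgs-/- over Ptgs+/+, for each gene (rows) in each deposited class (columns), in the order all 13 classes, 12 of 13, and every class measured, first for genes higher and then for genes lower in Ptgs-/- tumours. Grey marks classes under the 50 CPM minimum; the 5 genes at the top run from 0.61 to 1.78, and Rnf149 from -1.61 to -0.71.

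The 5 genes higher in every class encode short proteins: 4 are ribosomal proteins, Rpl41, Rpl37a, Rps21 and Rps28, and the other, 2010107E04Rik (Atp5mpl in GENCODE), is a small subunit of the mitochondrial ATP synthase. Their coding sequences are 75 bases for Rpl41, 174 for 2010107E04Rik, 207 for Rps28, 249 for Rps21 and 276 for Rpl37a, stop codon not counted. 2 of these coding sequences are printed because their length sets them apart from most genes of the table. They are from the GRCm38 genome with GENCODE M21 models, both on the minus strand and shown with the stop codon, and capitals mark the start and stop codons; the gene spans are chr10:128548114-128549305 for Rpl41 and chr17:33819027-33824562 for Rps28.
Rpl41: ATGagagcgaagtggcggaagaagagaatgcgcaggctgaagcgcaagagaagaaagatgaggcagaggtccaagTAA
Rps28: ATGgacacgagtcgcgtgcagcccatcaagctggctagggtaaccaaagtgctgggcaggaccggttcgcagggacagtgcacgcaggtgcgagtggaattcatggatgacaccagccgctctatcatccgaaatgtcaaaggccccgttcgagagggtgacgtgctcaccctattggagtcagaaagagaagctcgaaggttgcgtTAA

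Rpl41, a protein of the large ribosomal subunit, had 3127, 5914 and 6686 CPM (lowest, median and highest class) in Ptgs-/- cells, against 1630, 2472 and 3285 CPM in Ptgs+/+ cells. In 12 of the 13 classes the Ptgs-/- level lay above every Ptgs+/+ class, neutrophils being the exception. Its fold was smallest in neutrophils (0.77) and largest in TAM 3 (1.61). In TAM 3 this was 11043 UMIs against 1420, a depth-adjusted ratio of 3.12 with an exact 95% counting interval of 2.96 to 3.3; such intervals cover counting error only.

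Rpl37a, also of the large subunit, had 2417, 5966 and 8672 CPM in Ptgs-/- cells, against 1345, 2346 and 4460 CPM in Ptgs+/+ cells. Its fold ran from 0.67 in neutrophils to 1.78 in cDC3. The small-subunit proteins Rps21 and Rps28 behaved alike: Rps21 had a median of 2798 CPM over classes in Ptgs-/- cells and 1270 in Ptgs+/+ cells, and Rps28 2900 and 1421 CPM. Both had their smallest fold in NK cells (0.66 and 0.61) and their largest in cDC3 (1.40 and 1.42). 2010107E04Rik had 290, 465 and 532 CPM in Ptgs-/- cells, against 123, 254 and 291 CPM in Ptgs+/+ cells, with folds of 0.68 (TAM 3) to 1.28 (cDC3). Ribosomal protein genes have many near-identical processed copies in the genome, and how the authors' counting treated reads shared with such copies is not given in the sources used here.

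A further 4 genes were higher in 12 of 13 classes, and they too encode small proteins. Cops9, the smallest subunit of the COP9 signalosome, had 242, 346 and 451 CPM in Ptgs-/- cells, against 61.2, 164 and 219 CPM in Ptgs+/+ cells. The 2 ranges did not overlap: every Ptgs-/- class was above every Ptgs+/+ class. Its fold in T cells, 0.43, was the one under the limit. Snrpg, a core protein of the splicing ribonucleoproteins, just missed it in TAM 4 (0.57). Romo1, a small protein of the inner mitochondrial membrane, missed it in NK cells (0.50), and Bola2, which takes part in iron-sulphur cluster assembly, in T cells (0.30). The members nearest inside the limit were Rps28 (0.61 in NK cells) and Rps21 (0.66 in NK cells), and the nearest outside was Snrpg.

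Rnf149, a membrane RING-type ubiquitin ligase, was the 1 gene lower in all 13 classes. It had 80.6, 344 and 1381 CPM (lowest, median and highest class) in Ptgs-/- cells, against 155, 684 and 3163 CPM in Ptgs+/+ cells. Each class was lower in the Ptgs-/- library, although the ranges over classes overlapped, since the level also differed between classes. The fold ran from -1.61 in cDC3 to -0.71 in T cells. In T cells it rested on 41 UMIs against 17, and the counting interval of that ratio, 0.318 to 1.08, included 1. In TAM 1, with 3133 UMIs against 3778, the ratio was 0.468 (0.447 to 0.491).

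Lower in 12 of 13 classes were Lmnb1 and Prdx5. Lmnb1, which encodes lamin B1 of the nuclear envelope, had 28.5, 54.3 and 483 CPM in Ptgs-/- cells, against 76.3, 149 and 1566 CPM in Ptgs+/+ cells, with T cells (-0.52) under the limit. Prdx5, an antioxidant peroxiredoxin, had 52.3, 267 and 621 CPM in Ptgs-/- cells, against 93.8, 499 and 1018 CPM in Ptgs+/+ cells, with cDC2 (-0.53) under it. Both genes had their lowest fold in TAM 4, at -2.15 for Lmnb1 and -1.37 for Prdx5.

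In the NK-depleted Ptgs-/- library, set against the same Ptgs+/+ library, the mean CPM of the 5 genes higher in all classes was above the Ptgs+/+ value in 65 of 65 gene-class values. Rnf149 was below it in 13 of 13. The 4 genes higher in all but 1 class were above it in 51 of 52 values, and Lmnb1 and Prdx5 below it in 25 of 26. Both comparisons use 1 Ptgs+/+ library, so these counts share that reference and are given side by side, not as a repeat. The plot of levels shows that the Ptgs+/+ library was the one that stood apart for Rpl41, Rps28, Rnf149 and Ifitm1.

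**Figure D2:**
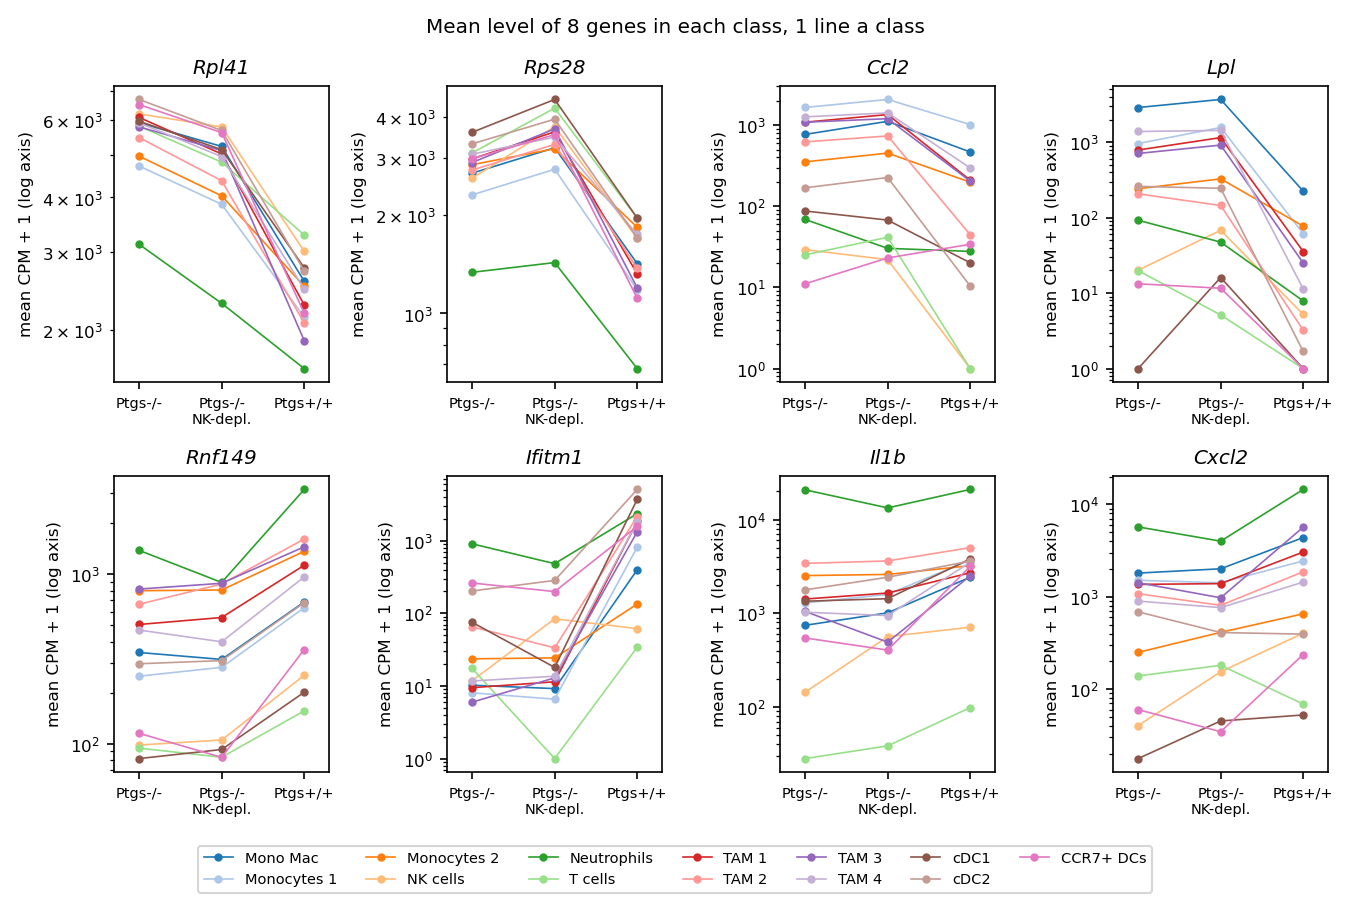
Mean CPM + 1 (log axis) of 8 genes in the Ptgs-/-, NK-depleted Ptgs-/- and Ptgs+/+ libraries, with 1 line for each of the 13 classes. For Rpl41 and Rps28 all 13 classes lie lower in the Ptgs+/+ than in the Ptgs-/- library, and for Rnf149 and Il1b all 13 lie higher.

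Coding length was a property that the choice of genes had not used, and the median fold differed with it in every class. It was known for 1292 of the 1302 genes (99.2%). The 22 genes with at most 200 coding bases had a median of gene medians of 0.51, and their class medians ran from 0.33 (NK cells) to 0.63 (Mono Mac), above 0 in all 13 classes. The 68 genes of 200 to 300 bases had 0.14, also above 0 in all 13. From 500 to 750 bases the median was -0.16 over 211 genes, below 0 in all 13 classes, and over 3000 bases it was 0.01 over 176 genes.

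The ribosomal proteins, which all serve 1 machine, differed with length among themselves. Medians were 0.72 for the 3 genes of at most 200 bases, 0.89 for 7 genes of 200 to 300, 0.52 for 17 of 300 to 400, 0.11 for 22 of 400 to 500 and -0.32 for 18 of 500 to 750. The 10 genes of 750 to 1000 bases, at -0.14, did not continue this order. Other genes of at most 200 bases had a median of 0.47 (19 genes), so the difference was not one of ribosomal proteins alone. Rps3 (729 bases) and Rpl10 (642 bases) were lower in 10 of 13 classes each, with medians of -0.78 and -0.74. Of 2327 genes measured in at least 10 classes, 17 (0.731%) were higher and 23 (0.988%) lower in at least 10. Rpl37, Rpl38 and Rplp1 were higher in 10 classes and Rplp2 in 11. Ribosomal protein genes were therefore called in both directions in the same libraries.

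The ratio of the summed CPM of short (up to 300 bases) to long (above 500 bases) ribosomal protein genes stated this within each library. It was 0.607 to 1.01 over the 13 classes of the Ptgs-/- library and 0.635 to 0.865 in the NK-depleted Ptgs-/- library, against 0.27 to 0.493 in the Ptgs+/+ library. The ranges of the Ptgs-/- and Ptgs+/+ libraries did not overlap. In TAM 1 the short genes summed to 32632 CPM in Ptgs-/- cells and 14461 in Ptgs+/+ cells, and the long genes to 47076 and 49194 CPM. The share of all ribosomal protein genes was 17.2% of the RNA in T cells of both libraries, 15.7% against 11.7% in TAM 1 and 14.3% against 9.11% in TAM 3. The part of coding length in the 5 shared higher genes was not tested. With genes above 500 coding bases alone, none was higher in all classes and Rnf149 was the 1 lower gene; this setting was chosen after seeing the data.

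**Figure D3:**
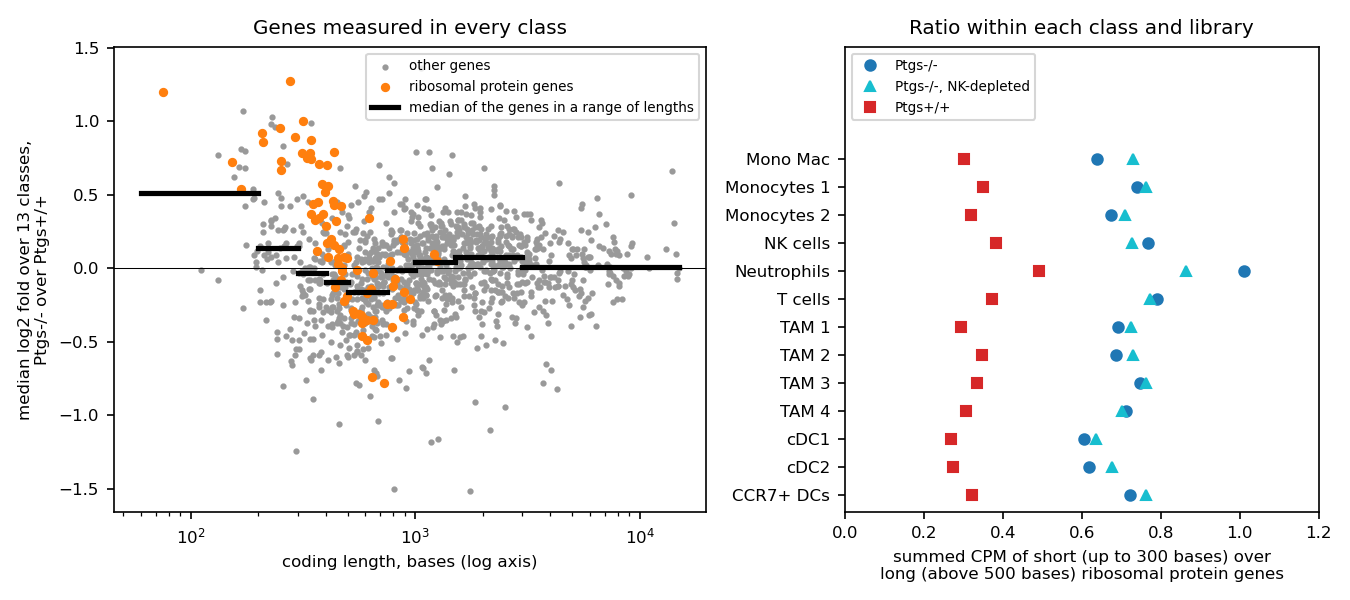
Left, median log2 fold over the 13 classes (Ptgs-/- over Ptgs+/+) of each gene measured in all classes against its coding length in bases (log axis), with ribosomal protein genes in orange and bars for the median of each range of lengths. Right, the ratio of summed CPM of short over long ribosomal protein genes in each class and library; the Ptgs-/- values lie at 0.607 to 1.01 and the Ptgs+/+ values at 0.27 to 0.493.

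Larger folds were found among genes that reached the level minimum in only some classes. A gene of this kind can reach the level minimum through the library where it is high, so the counts that follow describe and support nothing. Of 2097 genes measured in 5 to 12 classes, 9 (0.429%) were higher and 15 (0.715%) lower in every class measured. The higher ones are Lpl, Cd36, Axl, C3ar1, Tbxas1, Slamf9, Ccl2, Hipk2 and AA467197. In the Ptgs-/- library the highest class was a monocyte or macrophage cluster for 6 of them, cDC2 for Axl and AA467197, and cDC1 for Hipk2.

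Lpl encodes lipoprotein lipase, which releases fatty acids from circulating lipoproteins, and was higher in all 8 classes where it was measured, with a median fold of 4.47. Mono Mac cells had 2882 CPM in Ptgs-/- tumours and 224 CPM in Ptgs+/+ tumours, TAM 4 cells 1386 and 10.4 CPM, and cDC2 259 and 0.689 CPM. The smallest fold was in Monocytes 2 (1.60). The fatty acid receptor Cd36 was higher in all 5 classes measured, with 452 CPM in Ptgs-/- and 52.8 CPM in Ptgs+/+ TAM 3 cells. Abcg1, which exports cholesterol, was higher in 9 of 12 classes. By contrast Fabp5, an intracellular fatty acid carrier, was lower in 8 of 10 classes: cDC3 had 2373 CPM in Ptgs-/- tumours and 7262 CPM in Ptgs+/+ tumours. The genes of lipid handling thus did not differ as 1 group, and the list of 17 lysosome and lipid genes had 39 higher and 24 lower of 139 gene-class values, beside 12% higher and 12.3% lower over all 40404 values.

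Ccl2, the main attractant of monocytes, was higher in all 9 classes measured, with a median of 2.08. Monocytes 1 had most of it and differed least, with 1652 CPM in Ptgs-/- cells and 1016 CPM in Ptgs+/+ cells (fold 0.70). TAM 2 had 621 and 43.6 CPM (3.69), and cDC2 168 and 9.42 CPM (3.59). Its neighbour on chromosome 11, Ccl7, was higher in 7 of 9 classes, with cDC2 at 117 CPM in Ptgs-/- and 2.57 CPM in Ptgs+/+ tumours, but differed by less than the limit in Monocytes 1 (0.41) and Mono Mac (-0.15). The inflammatory chemokines of macrophages did not follow: Ccl3 was lower in 4 of 11 classes and higher in none, and Ccl4 was 1 of 89 genes (1.91% of 4651 measured in at least 2 classes) past 2-fold higher in some class and past 2-fold lower in another.

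Among the receptors, Axl, which binds Gas6 on dying cells, was higher in all 8 classes measured, from 0.62 in cDC3 to 3.45 in TAM 2. C3ar1, the receptor of the complement fragment C3a, was higher in all 7, with 846 CPM in Ptgs-/- and 331 CPM in Ptgs+/+ TAM 1 cells. Tbxas1, thromboxane synthase, uses the same cyclooxygenase product as prostaglandin E2 synthesis and was higher in all 7 classes measured. It had 150 CPM in Ptgs-/- and 15.8 CPM in Ptgs+/+ TAM 1 cells. Ncf1, a subunit of the phagocyte NADPH oxidase, was higher in 10 of 11 classes, and its largest level was in neutrophils, with 808 CPM against 253. The macrophage gene Adgre1, which encodes F4/80, was higher in 7 of 9 classes. More cells with a gene's RNA and more RNA in each cell both raise a class mean and were not separated here.

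The NK-depleted Ptgs-/- library lay above the Ptgs+/+ library for these 9 genes in 63 of 64 measured gene-class values. Ccl2, for example, had medians over all 13 classes of 352 CPM in the Ptgs-/- library and 451 CPM in the NK-depleted one, against 43.6 CPM in the Ptgs+/+ library. Lpl had 241 and 244 CPM, against 6.88 CPM.

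Ifitm1 had the largest shared difference. It encodes an interferon-induced membrane protein that restricts virus entry, and was lower in all 11 classes measured. Over all 13 classes it had 4.98, 16.4 and 903 CPM (lowest, median and highest) in Ptgs-/- cells, against 33.1, 1571 and 5064 CPM in Ptgs+/+ cells. The fold was -7.10 in TAM 1, with 8.46 CPM in Ptgs-/- and 1835 CPM in Ptgs+/+ cells, and -1.55 in neutrophils, with 903 and 2353 CPM. In TAM 1 this was 52 UMIs against 5930. NK cells and T cells, under the minimum, had 10.8 against 60.5 CPM and 16.4 against 33.1 CPM.

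The neighbouring Ifitm2 was lower in all 11 classes measured, with a median of -1.76. It had 453 CPM in Ptgs-/- and 2429 CPM in Ptgs+/+ cDC2, and 640 and 1258 CPM in Monocytes 2, the class with the smallest fold (-0.97). Ifitm3 was lower in 8 of 11 classes and Ifitm6 in 6 of 8. Over the IFITM family 36 of 41 gene-class values were lower and 0 higher, beside 12.3% and 12% over all genes. No family member was thus called higher in any class, and the median was furthest from 0 for Ifitm1.

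The start regions of 4 of the lower genes are printed to show the interferon and NF-kB motifs where they were found near the start of a lower gene, beside the start of Ifitm1. They are RefSeq windows of 110 bases on GRCm38.p6, given on the strand of the gene. Capitals mark the motif found: the interferon-stimulated response element (ISRE) in Ifitm2 and an NF-kB motif in Cxcl2 and Cxcl3. The window of Ifitm1 holds neither, which says only that these letters are not in it. The windows are chr7:140967966-140968075 (plus strand) for Ifitm1, chr7:140955962-140956071 (minus) for Ifitm2, chr5:90903789-90903898 (plus) for Cxcl2 and chr5:90785991-90786100 (plus) for Cxcl3.
Ifitm1: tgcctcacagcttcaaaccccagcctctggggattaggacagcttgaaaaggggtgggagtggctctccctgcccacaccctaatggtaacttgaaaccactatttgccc
Ifitm2: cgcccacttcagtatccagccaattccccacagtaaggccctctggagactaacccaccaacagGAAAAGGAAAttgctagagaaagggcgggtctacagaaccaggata
Cxcl2: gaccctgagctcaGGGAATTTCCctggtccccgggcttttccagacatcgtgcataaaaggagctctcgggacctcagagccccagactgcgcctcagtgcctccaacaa
Cxcl3: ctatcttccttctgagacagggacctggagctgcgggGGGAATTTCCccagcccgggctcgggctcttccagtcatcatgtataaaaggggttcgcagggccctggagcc

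On both strands of the RefSeq promoter windows, which run from 250 bases before each start, the ISRE was found in 1 of the 15 matched genes of the shared higher set (Romo1) and in 1 of the 14 matched genes of the shared lower set (Ifitm2), beside 2.98% of 32851 promoters. The sets are the genes past the limit in all, all but 1 or every measured class, 18 genes each. The GAS motif TTCNNNGAA was in 1 and 1 (7.02% of all promoters), and the AP-1 motif TGANTCA in 3 and 0 (6.75%). The cyclic AMP element TGACGTCA was in 1 gene of the higher set, Snrpg, and in 0 of the lower (1.55%). The NF-kB motif was in 0 and 1, Cxcl3 (0.356%). Each motif was thus in at most 3 genes of a set. Cxcl2 was lower in 10 classes but higher in 2 and is in neither set.

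Inflammatory genes of myeloid cells were among the shared lower genes. Cxcl3, a neutrophil attractant, was lower in all 8 classes measured (median -3.91), with 77.7 CPM in Ptgs-/- and 1666 CPM in Ptgs+/+ TAM 3 cells. Cxcl2 was lower in 10 of 12 classes and higher in the other 2, T cells (0.97) and cDC2, where Ptgs-/- cells had 686 CPM and Ptgs+/+ cells 393 CPM. In T cells that value rested on 52 UMIs against 8. Il1b, the cytokine interleukin-1 beta, was below its Ptgs+/+ level in all 13 classes and past the limit in 10: 544 CPM against 3169 in cDC3, 743 against 2426 in Mono Mac, but 20736 against 20923 in neutrophils. The decoy receptor Il1r2 was lower in 10 of 11 classes, again with neutrophils as the exception (2101 CPM against 2040).

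Over the list of 14 genes of tumour-promoting inflammation, 77 of 102 gene-class values (75.5%) were lower and 5 (4.9%) higher, beside 12.3% lower and 12% higher over all 40404 values, and the list median was below 0 in 12 of 13 classes. The list was drawn up with earlier results of these libraries known and is not independent evidence of this direction. The class above 0 was cDC1, where S100a9 had 200 UMIs in 2 Ptgs-/- cells, 1 of which held 99.6% of its level. Slpi, an inhibitor of neutrophil elastase, and Hdc, which makes histamine, were lower in all 7 classes measured. Vcan, the matrix proteoglycan versican, was also lower in 7 of 7, with 162 CPM in Ptgs-/- and 692 CPM in Ptgs+/+ Monocytes 1.

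Several of these genes mark neutrophils, which were 2.37% of Ptgs-/- and 6.28% of Ptgs+/+ cells. The 12 neutrophil markers had a median fold below 0 in 11 of the 12 classes where any was measured. Of their 67 gene-class values 54 were lower and 3 higher, beside 12.3% lower and 12% higher over all 40404 values. The lower values include those of 8 of the 12 markers in neutrophils themselves, where the median was -0.71. Of the lower genes described here, Rnf149, Lmnb1, Il1b, Il1r2, Cxcl2, Cxcl3, Ptgs2, Slpi, Hdc, Clec4d, Slc7a11, Gsr and Pde4b were highest in neutrophils of the Ptgs+/+ library. S100a9 had 2.14 CPM in Ptgs-/- and 337 CPM in Ptgs+/+ TAM 2 cells, against 8563 and 15427 CPM in neutrophils. The part of free or doublet neutrophil RNA in these lower values was not tested. Not all lower genes were highest in neutrophils of the Ptgs+/+ library. For Ifitm1, 2 other classes exceeded them, cDC2 with 5064 CPM and cDC1 with 3699 CPM, against 2353 CPM in neutrophils. Other classes also exceeded neutrophils for Ifitm2 (4 classes) and Crem (2 classes). Slpi was close, with 1567 CPM in Ptgs+/+ neutrophils and 1505 CPM in Ptgs+/+ TAM 2 cells. In another setting, cells holding a UMI of S100a8 or S100a9 were left out of every class but neutrophils, which kept all their cells. The median of Ifitm1 was then -4.97 and of Slpi -3.16, while Hdc came to -1.41 (-2.12 with all cells) and Cxcl2 to -0.73 (-1.22 with all cells).

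The list of 12 genes of iron storage and oxidative stress had a median below 0 in all 13 classes, from -0.38 in neutrophils to -1.21 in cDC3. In several classes that median was within the 1.5-fold limit, and Monocytes 1 had 1 lower of 7 measured members. Over all classes 46 of 94 gene-class values (48.9%) were lower and 8 (8.51%) higher, beside 12.3% lower and 12% higher over all 40404 values. Slc7a11, the cystine importer that feeds glutathione synthesis, was lower in all 10 classes measured: TAM 1 had 53.6 CPM in Ptgs-/- tumours and 594 CPM in Ptgs+/+ tumours, and Monocytes 1 had 5.06 and 96.2 CPM. Gsr, glutathione reductase, was lower in 10 of 12 classes, with 69.1 against 453 CPM in TAM 1. Fth1, the ferritin heavy chain, had 880, 4580 and 16576 CPM (lowest, median and highest class) in Ptgs-/- cells, against 1468, 7138 and 36698 CPM in Ptgs+/+ cells, and was past the limit in 9 of 13 classes. Txnrd1, thioredoxin reductase, was lower in 7 of 13 and Hmox1, heme oxygenase, in 4 of 9.

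**Figure D4:**
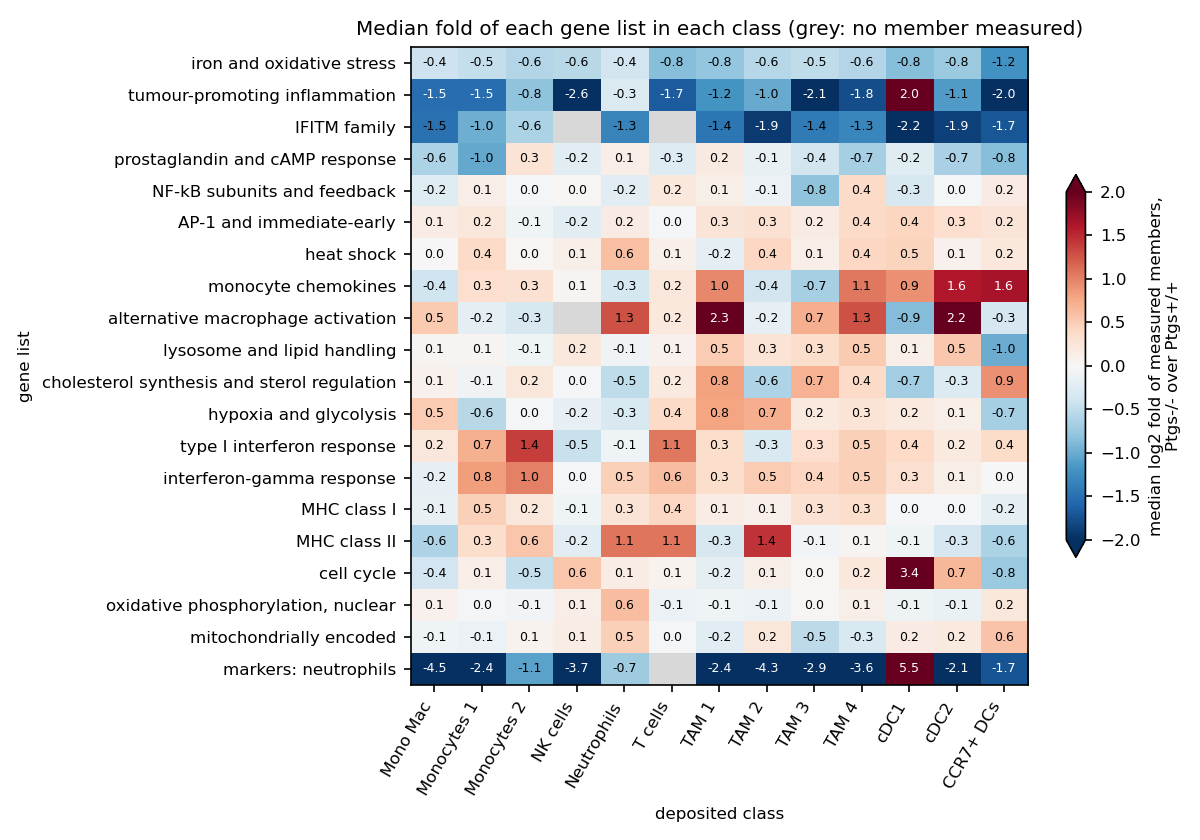
Median log2 fold (Ptgs-/- over Ptgs+/+) of the measured members of each gene list (rows) in each class (columns), with values beyond 2 either way shown at the end of the colour scale and grey where no member was measured. Iron and oxidative stress genes are below 0 in all 13 classes and the IFITM family in all 11 with a measured member.

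Genes of prostaglandin synthesis and of the cyclic AMP response in the host leukocytes went in different directions. Ptgs2, which the leukocytes keep whatever the tumour genotype, was lower in 10 of 12 classes: Ptgs-/- TAM 3 cells had 494 CPM and Ptgs+/+ TAM 3 cells 1718 CPM, but neutrophils had 6932 and 7542 CPM. Ptgs1 and Ptger2 reached the minimum in no class. Crem, a cyclic AMP-responsive transcription factor, was lower in 11 of 12 classes, all but TAM 3 (-0.43). Monocytes 1 had 39.7 against 131 CPM. Neutrophils, the class with the fewest UMIs a cell, had the largest difference, with 28.6 against 234 CPM. Pde4b, a phosphodiesterase that degrades cyclic AMP, was lower in 11 of 13, all but TAM 2 (-0.54) and NK cells (0.25).

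The receptor gene Ptger4 was higher in 5 of the 8 classes where it was measured and lower in none, with 76.2 CPM in Ptgs-/- and 26 CPM in Ptgs+/+ TAM 1 cells. Nr4a1, an orphan nuclear receptor induced by many signals, was higher in 3 of 13 classes and lower in none. Nr4a2 split evenly, higher in 4 classes (neutrophils, TAM 1, TAM 2 and TAM 3) and lower in 4 (Mono Mac, Monocytes 1, cDC2 and cDC3). Over the 16 genes of the list, 53 of 123 gene-class values (43.1%) were lower and 16 (13%) higher, beside 12.3% lower and 12% higher over all 40404 values, and the list median was below 0 in 10 of 13 classes. Immediate-early genes did not all go 1 way. Fosb, of the AP-1 family, was higher in 9 of 13 classes and lower in none, and Egr2 in 7 of 9. Ier3 was lower in 8 of 12 classes and higher in none. Over the list of 16 AP-1 and immediate-early genes, 40 of 181 gene-class values (22.1%) were higher and 18 (9.94%) lower.

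The number of interferon-stimulated genes called higher in Ptgs-/- cells varied over classes. For the 20 type I genes 48 of 111 gene-class values (43.2%) were higher and 9 (8.11%) lower, beside 12% higher and 12.3% lower over all 40404 values. Monocytes 1 had 12 higher of 17 measured members, Monocytes 2 had 12 of 16 and T cells had 4 of 5, against 0 of 5 in both NK cells and cDC2 and 2 of 7 in both Mono Mac and TAM 1. The list medians ran from -0.45 in NK cells to 1.39 in Monocytes 2. Rsad2, the antiviral protein viperin, was higher in 9 of 11 classes: Monocytes 2 had 308 CPM in Ptgs-/- and 61.9 CPM in Ptgs+/+ tumours, cDC3 176 and 6.45 CPM, and NK cells, the 1 lower class, 33.2 and 70.6 CPM. Of the interferon-gamma list 35 of 87 values (40.2%) were higher and 7 (8.05%) lower, of which 10 of 10 members were higher in Monocytes 1 and 7 of 8 in Monocytes 2. Cxcl10, which attracts T and NK cells, was higher in 5 of 7 classes, with 263 CPM in Ptgs-/- and 14.3 CPM in Ptgs+/+ Monocytes 2. Cd274, of the same list, went the other way, lower in 4 of 7 classes and higher in 0 (median -0.67). In the monocyte clusters the IFITM genes, also interferon-induced, had 2 of 4 members lower in Monocytes 1 and 2 of 4 in Monocytes 2; the difference between the lists was not tested.

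Genes past 2-fold in 1 class and within 1.5-fold in the other 12 numbered 54 of 1302 (4.15%). By class they were 25 in neutrophils, 11 in cDC3, 6 in cDC1, 5 in T cells, 5 in TAM 4, and 1 each in TAM 2 and TAM 3. The other 6 classes, NK cells, cDC2, TAM 1, Mono Mac and both monocyte clusters, had none under this rule. Of the 54, 41 had at least 30 UMIs over both libraries in that class, and 39 had a counting interval that left out a ratio of 1. The plot of classes per gene shows both counts.

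**Figure D5:**
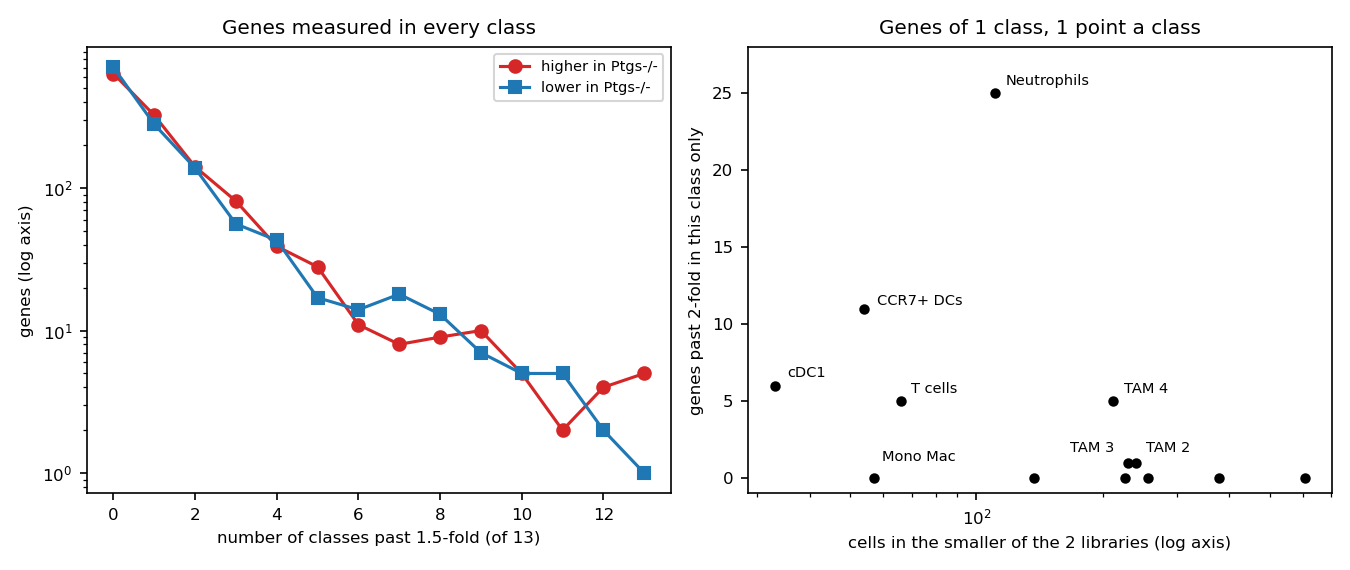
Left, number of genes (log axis) past 1.5-fold in 0 to 13 classes, for genes higher and genes lower in Ptgs-/- tumours. Right, number of genes past 2-fold in 1 class only against the cells of that class in the smaller library (log axis), 1 point a class; neutrophils have 25 and cDC3, the CCR7+ DCs, 11.

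The best counted of these genes are few. In cDC3, Vim, which encodes the intermediate filament vimentin, had 1585 CPM in Ptgs-/- and 543 CPM in Ptgs+/+ cells, a UMI ratio of 2.66 (95% counting interval 2.22 to 3.21), while its folds in the other 12 classes lay between -0.41 and 0.51. In TAM 2, Hsp90ab1, a cytosolic chaperone, had 1386 and 651 CPM, a ratio of 2.13 (1.97 to 2.3). In TAM 3, Nfkbia, the inhibitor of NF-kB, had 492 and 1237 CPM, a ratio of 0.434 (0.396 to 0.475). These values rested on 528 against 154 UMIs for Vim, 1245 against 1436 for Hsp90ab1 and 984 against 911 for Nfkbia.

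In TAM 4, Atox1, a copper chaperone, had 357 CPM in Ptgs-/- and 775 CPM in Ptgs+/+ cells, a ratio of 0.5 (0.408 to 0.612). Neutrophils were shallow, so their genes rest on fewer molecules. Lamp2, a lysosomal membrane protein, had 552 CPM in Ptgs-/- and 1311 CPM in Ptgs+/+ neutrophils, on 63 and 223 UMIs (ratio 0.391, 0.291 to 0.519). Calm3, a calmodulin gene, had 428 and 111 CPM on 56 and 23 UMIs, and Mtdh 554 and 150 CPM on 74 and 26 UMIs. In T cells Prex1, an exchange factor of Rac, had 229 and 93.7 CPM on 102 and 11 UMIs. In cDC1 Anp32b had 475 and 231 CPM on 125 and 51 UMIs, and Ctnnb1, beta-catenin, 78.3 and 181 CPM on 20 and 37 UMIs.

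Genes that pass the level minimum in only 1 class may be present below it in others, but were not compared across classes. This held for 1052 genes. Of these, 96 (9.13%) were higher past 2-fold and 136 (12.9%) lower. A share past 2-fold over all genes is not given, and such a gene can reach the minimum through the library where it is high. These counts and those by class therefore only describe. T cells (13 higher and 39 lower of 242), cDC3 (24 and 34 of 181) and neutrophils (17 and 33 of 154) held the most, and NK cells had 5 higher and 5 lower of 197. The genes named in the next sentences were chosen after their values were seen, except Gzmc. In NK cells Gzmc, a granzyme, had 22.9 CPM in Ptgs-/- and 1172 CPM in Ptgs+/+ cells, but its UMIs came from 14 and 17 cells, of which 1 held 35.7% and 36.7% of the level. Fasl, which kills target cells through Fas, had 392 CPM in Ptgs-/- and 172 CPM in Ptgs+/+ NK cells, in 257 of 510 and 40 of 137 cells.

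In Monocytes 1 Siglec1, a sialic acid-binding receptor, had 80.2 CPM in Ptgs-/- and 26.5 CPM in Ptgs+/+ cells, and Nrg1, a growth factor of the EGF family, 8.61 and 110 CPM. In cDC3 Myo10, an unconventional myosin, had 5.6 and 136 CPM, in 2 and 23 cells. In cDC2 the receptor of short-chain fatty acids Ffar2 had 51.3 and 213 CPM, in 67 and 173 cells. In cDC1 the replication gene Mcm5 had 101 CPM in Ptgs-/- cells (13 of 33 cells) and 2.25 CPM in Ptgs+/+ cells (1 of 38). Ccl17, a ligand of CCR4, was measured in 2 classes: cDC3 had 1393 CPM in Ptgs-/- and 5.61 CPM in Ptgs+/+ cells, and cDC2 had 236 CPM from 948 UMIs against 0 UMIs, at least 192-fold higher when 3 UMIs are taken as the limit in the Ptgs+/+ class. Among genes measured in neutrophils alone, the high values of Gm26782 and Dennd5b came from 2 cells and 1 cell of the Ptgs-/- library.

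Arg1, which breaks down arginine and marks alternatively activated macrophages, was between the patterns. It was higher in 6 of 7 classes measured, with 1034 CPM in Ptgs-/- and 21.4 CPM in Ptgs+/+ TAM 2 cells and 1707 and 221 CPM in TAM 1, but TAM 3 cells had 2097 and 2513 CPM (-0.26). Fn1, fibronectin, was higher in 5 of 8 and lower in none. The list of alternative activation genes as a whole had 25 (49%) higher and 8 (15.7%) lower of 51 gene-class values, beside 12% and 12.3% over all values, with medians above 0 in 7 classes and below 0 in 5 of the 12 with a measured member. TAM 2, where Ccl2, Axl and Arg1 had their highest folds, was also 5.13% of Ptgs-/- and 20.8% of Ptgs+/+ cells. Whether the same clusters hold the same kinds of cells in both libraries was not tested.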

How the data were processed

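Matrices of 3 libraries of the Chromium 3' v3 assay were used, deposited by the authors as log2(CPM + 1) per cell and 18087 genes. Per the submitters' processing notes, Cell Ranger 3.0.2, Partek and mm10 were used; handling of doublets and free RNA is not given in the sources used here, and neither was corrected. The sort gate and a share of spike-in cells are described in the labels' protocols. UMIs were recovered from the log2 values the authors deposited: 99.9% of values above 0 came out whole within 0.1 UMI or 0.01% of the value, and 18 symbols with parts of a UMI were not named from UMI counts.

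Of 11872 cells, 36 without an annotation and 18 with a barcode on more than 1 cell were left out. The retained cells had at least 500 UMIs and at most 10% mitochondrial reads. Classes and libraries came from the authors' metadata. Total UMIs were 24254743 in the Ptgs-/- library, 23193662 in the NK-depleted Ptgs-/- library and 13341156 in the Ptgs+/+ library. Folds used mean CPM with a pseudocount of 5, which understates the change of low genes, and a 50 CPM minimum; exact binomial intervals at 95% and a limit of 3 UMIs at a count of 0 cover counting error only. The "1 class only" rule was past 2-fold in 1 class and within 1.5-fold in the others. No test across samples was possible. The scripts were tested on simulated data.

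Named were all genes past the limit in all or all but 1 class, up to 3 a direction and class with at least 30 UMIs for 1 class only, list members with large medians, the 10 most evenly split genes past 2-fold both ways, and a fixed set. Genes called in every class measured or in at least 10 classes, and genes measured in 1 class, were named after their values were seen. The members and lists were chosen with earlier results of these data known. Alternatives changed the pseudocount, minimum, fold, centring, mean, cells, classes and genes. Python 3.11.15, numpy 2.4.6, scipy 1.17.1, pandas 2.3.3 and matplotlib 3.10.9 were used, with GENCODE M21 for coding lengths.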

Additional observations from a re-analysis of the deposited data

Results flagged for a closer look

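Of 4651 genes measured in at least 2 classes, 89 (1.91%) were past 2-fold higher in some class and past 2-fold lower in another; the 10 most evenly split are given, T cell receptor and antibody segments left out. With 1 library a genotype, none of these differences between classes was tested. CPM are given for Ptgs-/- and then Ptgs+/+ cells.

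Ly6a, a surface protein raised by interferon, had a fold of 1.34 in Monocytes 1 (975 and 382 CPM, from 4538 and 472 UMIs) and -2.07 in cDC2 (131 and 565 CPM, from 523 and 1640 UMIs). Plac8 had 1.87 in TAM 1 (290 and 75.3 CPM) and -1.39 in NK cells (103 and 279 CPM, from 163 and 142 UMIs). Ccl4, a chemokine, had -1.80 in TAM 3 (607 and 2119 CPM) and 1.57 in cDC3 (165 and 52 CPM, from 64 and 18 UMIs in 9 and 7 cells). Pf4, made by resident-like macrophages, had 1.73 in TAM 2 (628 and 185 CPM) and -1.30 in neutrophils (49.6 and 114 CPM, from 7 and 31 UMIs).

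The metallothionein Mt1 had 1.85 in TAM 2 (205 and 53.2 CPM) and -2.06 in cDC1 (8 and 33 UMIs). The histone Hist1h1c had 1.33 in TAM 4 (176 and 66.9 CPM) and -1.68 in cDC1 (6 and 18 UMIs). The phosphatase Dusp2 had 1.12 in neutrophils (35 and 20 UMIs) and -1.27 in cDC3 (100 and 250 CPM). The chaperone Hspa1b had 1.35 in neutrophils, where 6 cells of each library held it, and -1.58 in cDC1 (322 and 974 CPM). The ubiquitin-like Isg15 had 1.36 in cDC1 (28 and 7 UMIs) and -1.19 in cDC3 (184 and 427 CPM). S100a9 had 5.52 in cDC1, where 1 Ptgs-/- cell held 99.6% of it, and -5.58 in TAM 2 (2 and 1054 UMIs).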

How the results depend on the processing

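The counts of genes higher in all classes, lower in all classes and past the limit in 1 class only were 5, 1 and 54. With a minimum of 20 CPM they were 5, 2 and 124, with 100 CPM 5, 1 and 18, and with none 2, 5 and 220. A smaller fold limit gave 16, 10 and 7, and a larger one (2-fold, or 4-fold for 1 class) 0, 0 and 9. The difference of mean log2 values gave 8, 6 and 33. Classes of at least 100 cells a side gave 7, 4 and 94, and pooled clusters 8, 8 and 157. Asking also for a counting interval that left out 1 gave 5, 0 and 39. Chosen after seeing the data, CPM without ribosomal protein and mitochondrial genes gave 2, 1 and 68, where the ribosomal genes are absent by construction, and genes above 500 coding bases gave 0, 1 and 46. The cause of the other changes was not tested. All other settings stayed within 1.5 times each count, from 5 to 6, at 1 and from 48 to 63. The genes differed more than the counts: of the 54 genes of 1 class, 27 were shared under summed UMIs, which also lost Rps28 from the higher genes. With cells of at least 500 genes 29 were shared, and under mean log2 values 2, where 3 of the 5 higher genes were shared. Leaving out neutrophils removes the 25 genes of that class by construction. The 29 genes shared in that setting were all those of the other classes. Among the genes and lists checked, no value past the 1.5-fold limit changed sign. Values within the limit were not checked for a change of sign, and not every gene named here was among those checked. Over genes and settings, 502 medians moved by less than their counting interval's margin and 234 by more, as did 233 and 10 folds of genes of 1 class; 321 list medians moved by less than their spread over classes and 7 by more. No paired analysis was possible because each group is 1 library. Depth limits the neutrophil, T cell, TAM 4, cDC1 and cDC3 values most.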

Other observations

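Further gene lists are given as counts of gene-class values past 1.5-fold, beside 12% higher and 12.3% lower over all genes. Of the 17 genes of hypoxia and glycolysis, 44 of 181 values were higher and 21 lower in Ptgs-/- cells. They were unevenly spread over classes: TAM 1 and TAM 2 each had 11 of 16 measured members higher and 0 lower. By contrast cDC3 had 8 of 13 lower and 1 higher, and Monocytes 1 had 6 of 12 lower and 0 higher. Pgk1 and Pgam1, enzymes of glycolysis, were each higher in 5 of 13 classes and lower in none. Heat shock genes had 28 higher and 11 lower of 137, with Hspd1, a mitochondrial chaperone, higher in 5 of 12 classes and Hspa1b higher in 2 and lower in 5 of 13. MHC class I genes had 19 higher and 4 lower of 135, and H2-K1 was higher in 3 of 13. MHC class II genes had 14 higher and 12 lower of 76. In TAM 2 all 7 measured members were higher (median 1.44), while Mono Mac and cDC3 each had 4 of 7 lower and 0 higher. Nuclear oxidative phosphorylation genes had 16 higher and 7 lower of 199, with 8 of 14 higher in neutrophils.

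Markers of macrophages had 31 higher and 10 lower of 67 values: C1qa and C1qc, chains of complement C1q, were each higher in 6 of 7 classes and lower in 1. Markers of cDC1 had 21 higher and 1 lower of 42, of which Naaa, a lysosomal amidase, was higher in 9 of 10 classes. Of the B cell markers only Ighm, the heavy chain of IgM, was measured, and it was higher in 4 of 8 classes and lower in none. Markers of platelets had 2 higher and 6 lower of 11 values, of which 8 were those of Pf4, also made by resident-like macrophages. The part of free RNA or doublets in marker genes found outside their own class was not tested.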
